A study of Mus musculus with 6 samples.

Results

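The 9 genes Muc2, Fcgbp, Tff3, Zg16, Spink4, Klk1, Retnlb, Agr2 and Ern2 encode products that goblet cells secrete into the intestinal mucus or need to make them. They were taken by name from a table of 23402 genes, as components of goblet cell mucus and its secretion. The rule is a list of names with no threshold on a measured value, but it was drawn up when earlier results of these data were known. Messenger RNA was measured by sequencing of whole terminal ileum, 1 library per mouse, in 6-week-old animals given dextran sodium sulfate (DSS), a detergent-like agent that injures the gut epithelium, in their drinking water until day 6. The 3 mice called KO were Il17rafl/fl;Atoh1-cre+, and the 3 mice called WT were Cre-negative littermates. All 6 animals thus carried the floxed Il17ra allele and received DSS, so no animal with unfloxed alleles and no untreated animal stands beside either group. Atoh1 encodes the transcription factor that starts the secretory lineage of the gut, so Cre driven by it acts in goblet, Paneth and other secretory cells and their descendants, and the remaining cells of the tissue keep the receptor. Il17ra encodes a subunit shared by receptors for interleukin 17 cytokines.

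Goblet cells pack the gel-forming mucin MUC2 into large granules, after it has been folded in the endoplasmic reticulum and heavily O-glycosylated in the Golgi. On release the mucin unfolds into a gel, to which the cells add smaller secreted proteins that bind the gel, bind bacteria or aid repair of the surface. In the small intestine this layer is loose, and goblet cells stand among enterocytes and, in the crypts, Paneth cells.

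For none of the 8 genes with enough signal to be tested did a difference between KO and WT ileum pass the test. None of all 12695 genes tested passed either. The estimated changes of the 8 were small, with 4 estimates above 0, against 58.4% of all genes tested, and 4 below. Ern2, which encodes an endoplasmic reticulum stress sensor of mucus-secreting epithelium, was the 1 gene whose KO libraries all lay above its WT libraries. Such separation held for 5.77% of all genes tested, so it is not a result about the group. Muc2 and Fcgbp, which encode the main structural mucin and a large protein bound to it, kept nearly the same ratio to each other in every library. The likeness was not particular to this pair. Lrp1 and Myh14, which are not among the goblet mucus genes, lay nearer to Muc2 than Fcgbp did in the shape of their profiles over the libraries. Retnlb was close to absent in both groups.

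Levels are in FPKM, which divides a gene's fragments by its transcript length and the depth of the library, and are listed for animals 1, 2 and 3 of each group in that order. Estimated from the steps between low values, depth was 8550000 to 9630000 fragments in KO libraries and 9280000 to 9960000 in WT libraries, and between 16317 and 16547 genes were above 0. Il17ra itself stood at 7.93, 8.36 and 6.07 FPKM in KO ileum, against 6.04, 5.91 and 6.53 FPKM in WT ileum. The targeted gene was therefore not lower in the KO tissue (two-sided exact permutation p = 0.2, where 0.1 is the smallest possible), and the genotype labels were not checked by it. Y-linked genes were detected in 1 of 3 KO and 2 of 3 WT libraries, and Xist in the others. The summed FPKM of 8 B cell genes was 73.7, 89.6 and 11.3 in KO libraries, against 16.1, 12.8 and 7.42 in WT libraries, so KO 1 and KO 2 stood apart. WT 1 stood apart by transcript length: the median short transcript (under 1000 bases, 620 genes) lay 0.243 above its mean over the libraries on the log2 scale, against -0.16 to 0.0175 in the other 5. Genes that mark ileum as distinct from more proximal small intestine were low, and they were chosen after their values were seen. Fabp6, the ileal bile acid binding protein, had 0.316, 1.02 and 2.41 FPKM in KO ileum, against 1.22, 0.316 and 9.79 FPKM in WT ileum. Slc10a2, the ileal bile acid transporter, did not exceed 1.94 FPKM in any library, whereas Gata4, a transcription factor of proximal small intestine, had 37.1 to 49.3 FPKM in KO and 38.9 to 46.2 FPKM in WT libraries.

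Promoters are shown for Muc2 and Fcgbp, whose ratio varied least between libraries, and for Agr2, whose ratio to Muc2 was among those that varied most. Of the 9 genes, 4 (Muc2, Fcgbp, Agr2 and Klk1) have an entry in the RefSeq promoter table of build GRCm38.p6. The windows run from 250 bases before to 50 bases after the transcription start, on the plus strand, at chr7:141690090-141690389 for Muc2, chr7:28070986-28071285 for Fcgbp and chr12:35992675-35992974 for Agr2. Capitals mark the letters CAGCTG, an E-box of the kind bound by basic helix-loop-helix factors, and CATAAA, the reverse complement of the TTTATG bound by CDX factors of the intestinal epithelium.
Muc2: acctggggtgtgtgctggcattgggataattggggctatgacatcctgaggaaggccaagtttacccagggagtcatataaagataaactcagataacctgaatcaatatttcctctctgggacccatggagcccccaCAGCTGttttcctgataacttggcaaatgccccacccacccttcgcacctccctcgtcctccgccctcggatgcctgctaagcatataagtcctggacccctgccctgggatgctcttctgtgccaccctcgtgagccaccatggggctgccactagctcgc
Fcgbp: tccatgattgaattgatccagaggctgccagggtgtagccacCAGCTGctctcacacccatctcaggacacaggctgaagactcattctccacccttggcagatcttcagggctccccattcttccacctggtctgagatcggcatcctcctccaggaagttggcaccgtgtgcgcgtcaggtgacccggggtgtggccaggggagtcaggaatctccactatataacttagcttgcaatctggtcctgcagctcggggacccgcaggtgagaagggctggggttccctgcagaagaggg
Agr2: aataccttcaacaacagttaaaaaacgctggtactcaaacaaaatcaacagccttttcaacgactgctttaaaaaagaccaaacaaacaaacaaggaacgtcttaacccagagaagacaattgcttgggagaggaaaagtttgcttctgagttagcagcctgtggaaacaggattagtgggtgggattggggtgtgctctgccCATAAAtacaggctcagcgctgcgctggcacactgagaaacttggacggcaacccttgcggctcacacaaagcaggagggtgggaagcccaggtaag
CAGCTG, which reads the same on both strands, occurred once each in the Muc2 and Fcgbp windows, with its first base at -112 and -208 from the start, and not in those of Agr2 and Klk1. It occurred in 16.3% of 32851 promoter windows. TTTATG, searched on both strands, occurred once in the Agr2 window at -47, in none of the other 3, and in 11.85% of all windows. The E-box CAGATG, searched on both strands, occurred 2 times in the Klk1 window and in none of the other 3, and was present in 17.15% of all windows. TGTTTAC, a motif of FOXA factors, and TGACGTG, a core of the unfolded protein response element, were in none of the 4 windows and in 3.65% and 2.012% of all windows, each counted on both strands. TATAAA occurred once in the Muc2 window, at -174, and in 13.62% of all windows. These matches describe letters in a window and were not set against any binding data. Whether they bear on the ratios between these genes was not tested.

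Muc2 encodes the mucin that forms the gel (chromosome 7, 141690340 to 141754693, plus strand, GRCm38). It stood at 415.6, 407.5 and 375.43 FPKM in KO ileum, against 277.07, 346.93 and 398.67 FPKM in WT ileum. WT 1 was the lowest library by a wide step, and WT 3 lay between KO 3 and KO 2, so the groups overlapped. The means were 400 ± 21.2 FPKM in KO and 341 ± 61.0 FPKM in WT ileum (SD, n = 3 each). The fitted difference on the log2(FPKM + 1) scale was 0.24 (95% interval -0.12 to 0.60), a fold of 1.18 with an interval from 0.921 to 1.52. The annotation tags Muc2 as a fragmented locus, with 8 coding models of at most 2926 bases, far short of a full mucin message, so its level per length is uncertain relative to other genes although the libraries can still be compared.

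Fcgbp encodes a very large protein of repeated von Willebrand factor D domains that is found bound to MUC2 (chromosome 7, 28071236 to 28120862, plus strand). Its values were 1059, 997 and 942 FPKM in KO ileum, against 711, 922 and 953 FPKM in WT ileum. WT 1 was again far below the other 5 libraries, and WT 3 lay above KO 3. The means were 999 ± 58.3 FPKM in KO and 862 ± 131 FPKM in WT ileum (SD, n = 3 each), and the log2 difference was 0.22 (95% interval -0.17 to 0.62). Without WT 1 the log2 difference was 0.10 for Muc2 and 0.09 for Fcgbp, and without WT 3 it was 0.36 for Muc2 and 0.30 for Fcgbp.

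**Figure D1:**
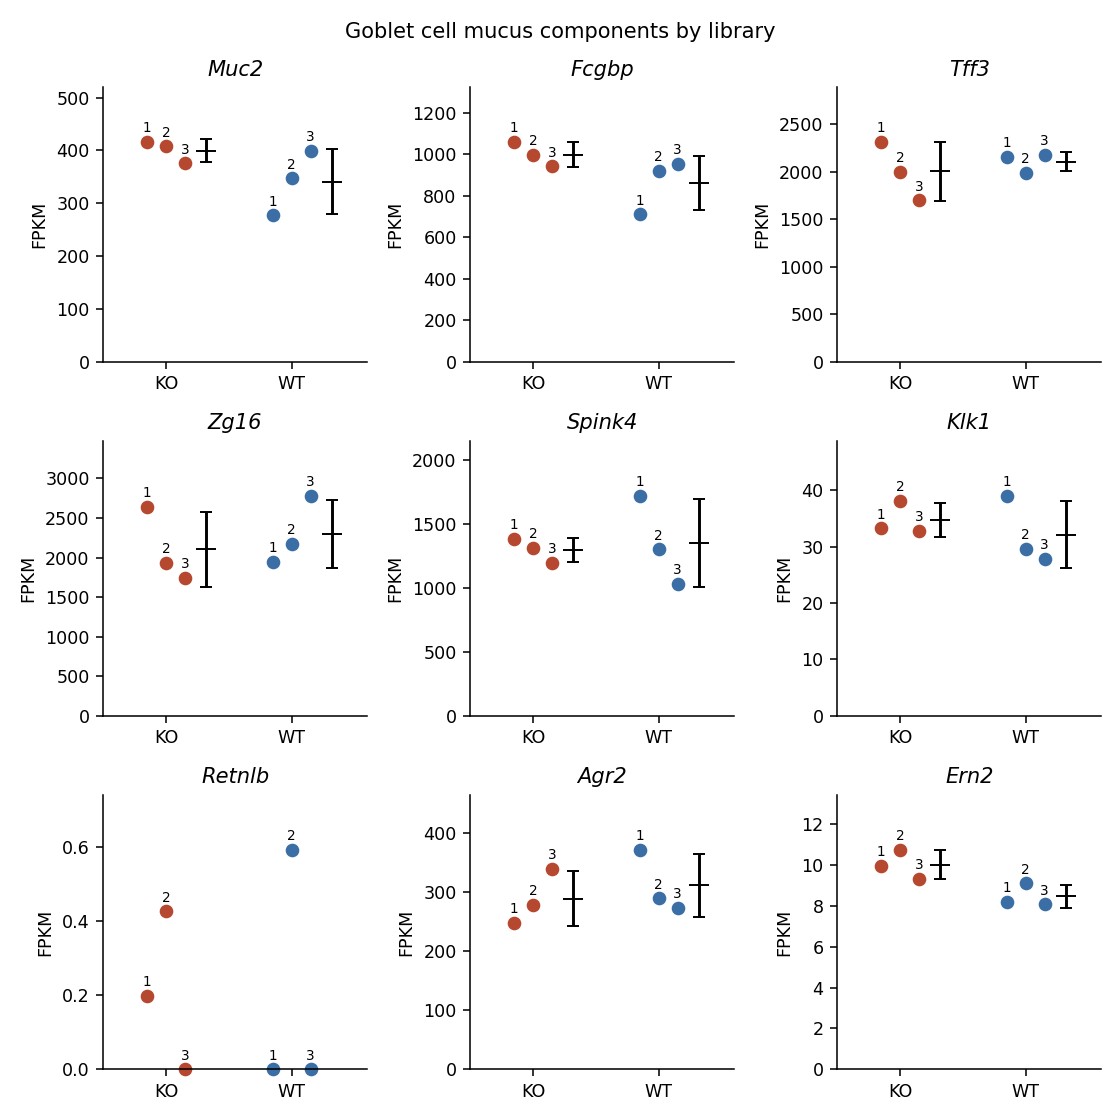
FPKM of the 9 goblet mucus genes in each library, 1 panel per gene with KO left of WT; points are single mice, and bars the group mean with its SD where the gene was tested. KO and WT points overlap in every panel except Ern2, in which the 3 KO libraries lie between 9.33 and 10.8 FPKM and the 3 WT libraries between 8.07 and 9.10 FPKM. All KO libraries lay above all WT libraries for 5.77% of all genes tested.

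Among the small secreted proteins, Tff3 encodes trefoil factor 3, a peptide that promotes movement of epithelial cells over wounds (chromosome 17, 31125306 to 31129646, minus strand). It had 2309, 1997 and 1699 FPKM in KO ileum, against 2151, 1990 and 2174 FPKM in WT ileum. KO 1 was the highest and KO 3 the lowest of all 6, with the WT libraries between them. The means were 2001 ± 305 FPKM in KO and 2105 ± 101 FPKM in WT ileum (SD, n = 3 each), a log2 difference of -0.08 (95% interval -0.55 to 0.38). 

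Zg16 encodes zymogen granule protein 16, a lectin that binds the wall of Gram-positive bacteria (chromosome 7, 127050156 to 127087328, minus strand). Its values were 2642, 1928 and 1742 FPKM in KO ileum, against 1944, 2169 and 2779 FPKM in WT ileum. KO 1 and WT 3 were the highest, well above the other 4, and the groups overlapped. The summed FPKM of 10 enterocyte genes was also highest in these libraries, at 14437, 8204 and 6694 in KO 1, KO 2 and KO 3 and 8267, 11232 and 14568 in WT 1, WT 2 and WT 3, and its part in the Zg16 values was not tested. The log2 difference of Zg16 was -0.13 (95% interval -0.71 to 0.44), the widest interval of the 8 genes.

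Spink4 encodes a Kazal-type serine protease inhibitor of goblet cell granules (chromosome 4, 40920052 to 40931395, plus strand). It stood at 1386, 1316 and 1199 FPKM in KO ileum, against 1721, 1302 and 1033 FPKM in WT ileum. The WT libraries held both the highest and the lowest value, in WT 1 and WT 3, and the KO libraries lay inside that range. The means were 1300 ± 94.4 FPKM in KO and 1352 ± 347 FPKM in WT ileum (SD, n = 3 each), and the log2 difference was -0.03 (95% interval -0.54 to 0.48). Its transcript, of 397 bases, is the shortest of the 9. The log2 difference of Spink4 was 0.16 without WT 1 and -0.21 without WT 3. It was 0.06 after each library's values were corrected for transcript length. 

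Klk1 encodes tissue kallikrein, a serine protease that releases kinins (chromosome 7, 44225360 to 44229618, plus strand). It had 33.3, 38.2 and 32.8 FPKM in KO ileum, against 39.0, 29.6 and 27.9 FPKM in WT ileum. WT 1 was the highest library and the other WT libraries the lowest. The log2 difference was 0.12 (95% interval -0.20 to 0.44). Without WT 1 it was 0.26, and without WT 3 it was 0.03. Its 13 mouse paralogues of the Klk1b family were near 0, with 7 listed at 0 in all 6 libraries and a highest single value of 0.308 FPKM.

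Retnlb encodes resistin-like beta, a goblet cell protein that damages bacteria and is strongly induced in worm infection and colitis (chromosome 16, 48816856 to 48818892, plus strand). It was listed at 0.197, 0.426 and 0 FPKM in KO ileum, against 0, 0.593 and 0 FPKM in WT ileum. These values are steps of 1.0, 1.99 and 3.01 times the smallest, that is, about 1 to 3 fragments in the libraries that had any. Retnlb was below the mean of 1 FPKM required for testing, so no difference is given, and none could be detected at this depth. The related Retnlg had 8.397, 5.44 and 9.03 FPKM in KO ileum, against 9.77, 6.00 and 6.58 FPKM in WT ileum, and Retnla had 0.984, 0.796 and 2.45 FPKM in KO ileum, against 1.19, 1.48 and 3.24 FPKM in WT ileum. Both relatives overlapped between the groups.

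Agr2 encodes a protein disulfide isomerase family member of the endoplasmic reticulum that is needed for MUC2 production in mouse intestine (chromosome 12, 35992907 to 36004087, plus strand). Its values were 248, 279 and 340 FPKM in KO ileum, against 372, 289 and 273 FPKM in WT ileum. WT 1 was the highest and KO 1 the lowest, and the groups overlapped. The means were 289 ± 46.8 FPKM in KO and 311 ± 53.0 FPKM in WT ileum (SD, n = 3 each), and the log2 difference was -0.11 (95% interval -0.50 to 0.29). It became 0.03 without WT 1 and -0.20 without WT 3. The summed FPKM of 6 crypt stem cell genes was likewise highest in WT 1 and lowest in KO 1. It was 341, 588 and 626 in KO libraries and 699.5, 575 and 421 in WT libraries. Olfm4 alone had 222.7 FPKM in KO 1 and 563 FPKM in WT 1, so the sum does not describe the list as a group. Lgr5 ran the other way, with its highest value in KO 1 and its lowest in WT 1. Ascl2 had 4.15 FPKM in KO 1 and 2.84 FPKM in WT 1. The part of these genes in the Agr2 values was not tested.

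Ern2 encodes IRE1 beta, a transmembrane sensor of unfolded proteins with an RNase domain, restricted to mucus-secreting epithelia (chromosome 7, 122169893 to 122186207, minus strand). It stood at 9.98, 10.8 and 9.33 FPKM in KO ileum, against 8.21, 9.10 and 8.07 FPKM in WT ileum. Every KO library lay above every WT library, as for 5.77% of all genes tested, with KO 3 closest to WT 2. The means were 10.02 ± 0.711 FPKM in KO and 8.46 ± 0.557 FPKM in WT ileum (SD, n = 3 each), a two-sided exact permutation p of 0.1, the smallest that 3 against 3 libraries allow. The fitted log2 difference was 0.22 (95% interval -0.016 to 0.46) and ranged from 0.17 without KO 2 to 0.27 without WT 2. Each value rests on an estimated 218 to 280 fragments, for a counting error near 6.8%. The summed B cell genes were 73.7, 89.6 and 11.3 FPKM in KO libraries, against 16.1, 12.8 and 7.42 FPKM in WT libraries, and their part in the Ern2 values was not tested. The relative Ern1, which encodes the broadly expressed IRE1 alpha, had 15.9, 17.1 and 18.7 FPKM in KO ileum, against 15.2, 16.4 and 16.4 FPKM in WT ileum. The ratio of Ern2 to Ern1 was 0.629, 0.628 and 0.5002 in KO libraries, against 0.539, 0.555 and 0.492 in WT libraries, and these ratios overlapped.

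**Figure D2:**
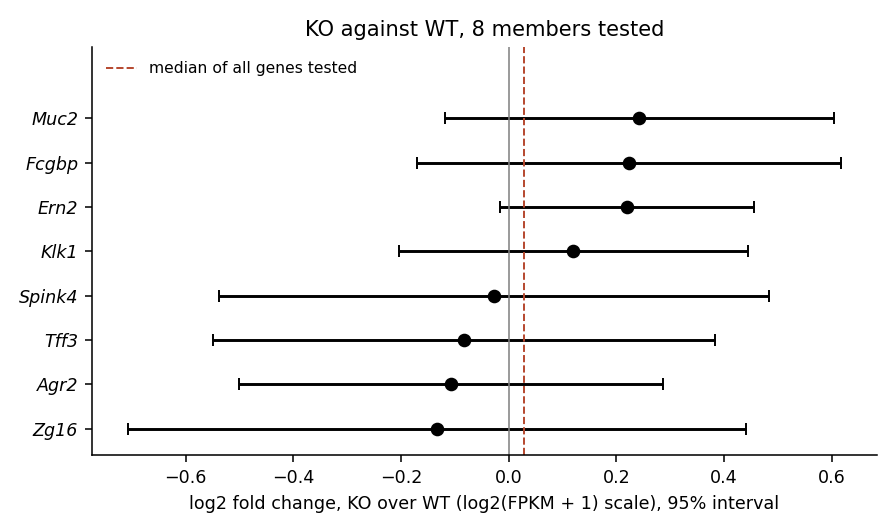
Fitted log2 fold change, KO over WT, on the log2(FPKM + 1) scale, with 95% intervals from limma, for the 8 goblet mucus genes tested; the dashed line is the median of all 12695 genes tested, 0.0286. All 8 intervals cross 0, and Ern2 has the narrowest, from -0.016 to 0.46.

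Across all genes, limma on log2(FPKM + 1) with Benjamini-Hochberg adjustment called none of 12695 genes at an adjusted p under 0.05 (0%), and the smallest adjusted p was 0.0743. None of the 8 tested goblet mucus genes passed, with an adjusted p in limma of 0.998 for each. At an unadjusted p under 0.05, limma gave 459 genes (3.62%), of which 323 were higher and 136 lower in KO, and 0 of the 8 goblet mucus genes were among them. All 3 KO libraries lay above all 3 WT libraries for 732 genes (5.77%) and for 1 of the 8, Ern2, and lay below them for 330 genes (2.6%) and for none of the 8. Against that background, 1 gene of 8 is not a result about the group. The median log2 difference of the 8 genes was 0.05, against 0.03 for all genes tested. The intervals leave room for sizeable differences: the upper limits ran from 1.22-fold for Agr2 to 1.53-fold for Fcgbp, and the lower limits from 0.612-fold for Zg16 to 0.989-fold for Ern2. These tests measure the spread between the libraries of single mice. In whole tissue, fewer goblet cells and less RNA per goblet cell cannot be told apart.

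Ordered by level per length over all 6 libraries, Zg16 averaged 2201 FPKM, Tff3 2053, Spink4 1326, Fcgbp 931, Muc2 370, Agr2 300.0, Klk1 33.5 and Ern2 9.24 FPKM, with Retnlb at 0.203 FPKM. Zg16 was above Tff3 in 4 of 6 libraries and Muc2 above Agr2 in 5 of 6, so these neighbours were not separated, while every other pair of neighbours kept its order in all 6. The 9 genes together summed to 8102, 6973 and 6339 FPKM in KO ileum, against 7224, 7058 and 7646 FPKM in WT ileum. They made up 1.52%, 1.33% and 1.28% of all FPKM in KO libraries and 1.202%, 1.29% and 1.44% in WT libraries, with overlap on both scales.

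The genes varied between libraries in different patterns. The ratio of Muc2 to Fcgbp was 0.393, 0.409 and 0.398 in KO ileum, against 0.390, 0.376 and 0.419 in WT ileum. Its highest value was 1.11 times its lowest, the tightest of the 28 pairs among the 8 tested genes, while the next pair, Spink4 and Klk1, spanned 1.28 times. The Spink4 to Muc2 ratio was the widest at 2.40 times, with 3.33, 3.23 and 3.19 in KO libraries and 6.21, 3.75 and 2.59 in WT libraries. The KO ratios lay close together there, and the WT ratios surrounded them. The Agr2 to Muc2 ratio was 0.596, 0.684 and 0.905 in KO ileum, against 1.34, 0.834 and 0.684 in WT ileum, also with overlap. 

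**Figure D3:**
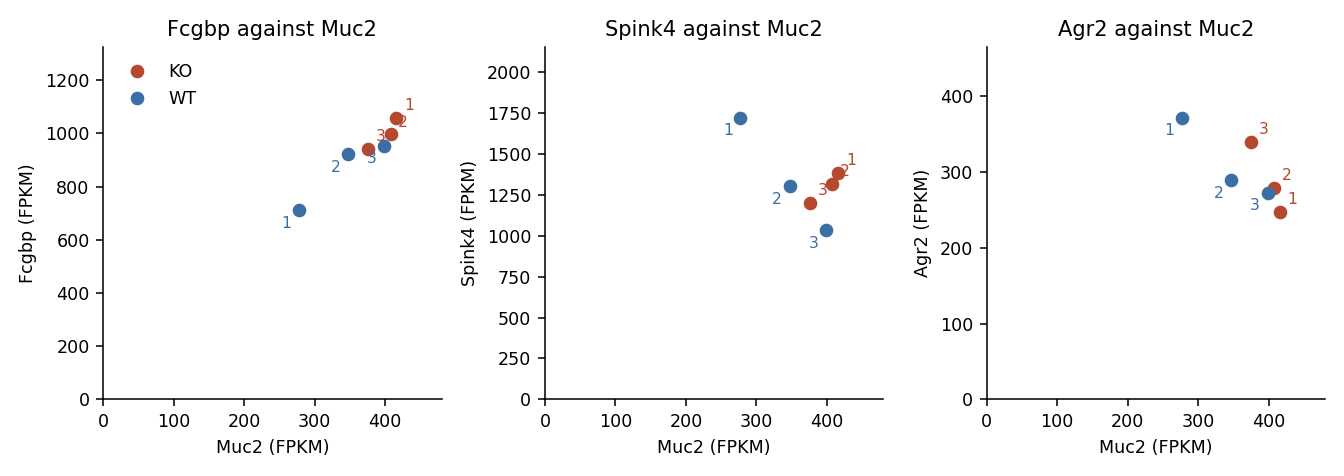
Fcgbp, Spink4 and Agr2 (vertical axes, FPKM) against Muc2 (horizontal axis, FPKM), 1 point per library, numbered by animal, with KO and WT in separate colours. The ratio of Muc2 to Fcgbp stays between 0.376 and 0.419, while WT 1 has the lowest Muc2 and the highest Spink4 and Agr2.

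Of 6596 genes averaging at least 10 FPKM, other than Muc2, Fcgbp was the third nearest to Muc2 in the shape of its profile over the 6 libraries, by the root mean square difference of standardized log2 values (0.237). The nearest was Lrp1 (0.155), which encodes a large endocytic receptor, followed by Myh14 (0.216), a nonmuscle myosin heavy chain. Sipa1l3 (0.245), a large protein of epithelial cell organisation, was next after Fcgbp. The longest transcripts annotated for these genes were of 14888 bases for Lrp1, 6499 for Myh14, 7928 for Fcgbp and 7713 for Sipa1l3. Further down this order stood Zg16 at rank 945, Tff3 at 2314, Klk1 at 3928, Spink4 at 5632 and Agr2 at 6186, and the longest transcripts of these 5 genes were under 1000 bases. Ern2, with a transcript of 2914 bases, and Retnlb averaged under 10 FPKM and were not ranked. Over 12012 genes with a known length, the median short transcript stood at -0.0823, -0.0215 and -0.0134 from its mean in KO libraries, against 0.243, 0.0175 and -0.16 in WT libraries, on the log2 scale. Spink4 stood at 0.39 in WT 1, -0.01 in WT 2 and -0.34 in WT 3 on the same centred scale. The part of transcript length in these profiles was not tested beyond the corrected differences. These were 0.22 for Muc2, 0.14 for Fcgbp, 0.16 for Klk1, 0.19 for Ern2, -0.01 for Tff3, -0.07 for Agr2 and -0.08 for Zg16. The correction used annotated lengths. For Muc2 the coding models have at most 2926 bases, far short of a full mucin message, so its corrected difference is uncertain.

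**Figure D4:**
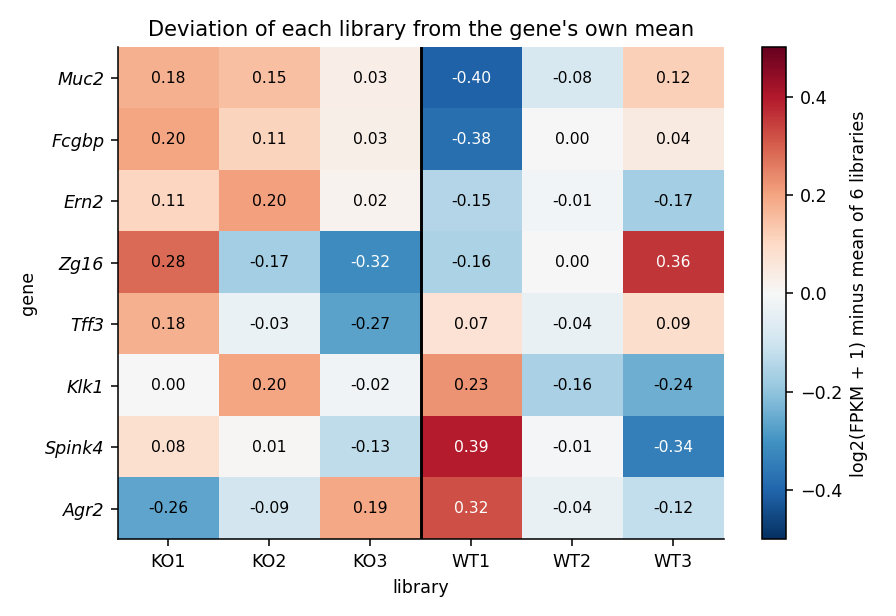
Log2(FPKM + 1) of the 8 tested goblet mucus genes in each library minus the gene's mean over the 6 libraries, with KO columns left of WT columns. WT 1 holds both the lowest values, -0.40 for Muc2 and -0.38 for Fcgbp, and the highest, 0.39 for Spink4.

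Other genes of the goblet cell were described by 6 further lists, with no gene called in any. They held 78 tested entries, of which none had an unadjusted limma p under 0.05, against 3.62% of all genes tested. All KO libraries lay above the WT libraries for 2 entries, against 5.77% of all genes, and below them for 3, against 2.6%. Both counts are near these shares and are not a result about the lists. Bcas1 and Bace2 were above and Pla2g10, Qsox1 and Il13ra1 below, with Bace2 named after its values were seen. Over all genes tested, 58.4% of estimates were above 0, and the counts by sign for each list stand beside that share. Of 18 other goblet cell markers, 8 estimates were above 0 and 10 below, with a median log2 difference of -0.03. Bcas1 had 10.5, 8.23 and 8.46 FPKM in KO ileum, against 7.01, 7.69 and 7.34 FPKM in WT ileum, with no overlap and a log2 difference of 0.26 (95% interval -0.01 to 0.54). Pla2g10, a secreted phospholipase, had 2.38, 2.71 and 1.89 FPKM in KO ileum, against 2.90, 2.86 and 3.10 FPKM in WT ileum, with no overlap in the other direction. Scin, an actin-severing protein, had a log2 difference of 0.21 with overlapping groups. 

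Among 10 transcription factors of the goblet lineage, 3 estimates were above 0 and 7 below, with a median of -0.06. Spdef, which drives goblet cell maturation, had 10.8, 10.3 and 9.03 FPKM in KO ileum, against 9.65, 7.37 and 9.52 FPKM in WT ileum. Atoh1, named after its values were seen because it drives the Cre, had 11.5, 9.43 and 10.1 FPKM in KO ileum, against 10.02, 8.21 and 10.6 FPKM in WT ileum, and its groups overlapped. Xbp1, the target of IRE1 splicing, and Creb3l4 had log2 differences of -0.11 and -0.15.

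The 17 genes of mucin folding and export from the endoplasmic reticulum gave 10 estimates above 0 and 7 below, with a median of 0.03. Qsox1, which forms disulfide bonds, had 35.2, 32.7 and 36.2 FPKM in KO ileum, against 37.8, 36.6 and 40.5 FPKM in WT ileum, without overlap but with a log2 difference of only -0.14. Tmed3, a cargo receptor, had a difference of -0.25, and Pdia5, a disulfide isomerase, 0.15. Of 17 genes of mucin O-glycosylation 14 were tested, with 5 estimates above 0 and 9 below and a median of -0.05. Galnt3, which adds the first sugar, had a difference of -0.21, Uap1, which makes the sugar nucleotide, -0.18, and Gcnt1, which branches the chain, 0.32. 

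Of 13 genes of granule release and mucus unfolding 12 were tested, with 6 estimates on each side of 0. Vamp8, a granule fusion protein, had 105, 79.5 and 89.2 FPKM in KO ileum, against 111, 105 and 107 FPKM in WT ileum, and KO 1 overlapped the WT range. Mep1b, the meprin subunit that frees the small intestinal mucus from the epithelium, had 507, 315 and 318 FPKM in KO ileum, against 423, 437 and 554 FPKM in WT ileum. It is made by enterocytes, and KO 1 and WT 3 were its highest libraries. Mep1a, the other meprin subunit, had a log2 difference of -0.62 with an interval from -2.09 to 0.84.

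Of 11 cytokines and receptors that induce goblet genes 7 were tested, with 1 estimate above 0 and 6 below and a median of -0.19. Il13ra1, a receptor chain for interleukins 4 and 13, had 48.5, 39.4 and 46.0 FPKM in KO ileum, against 51.4, 48.6 and 52.7 FPKM in WT ileum, without overlap and with a log2 difference of -0.19 (95% interval -0.43 to 0.05). Il18 had 18.9, 36.6 and 31.8 FPKM in KO ileum, against 29.9, 42.6 and 39.1 FPKM in WT ileum, with overlap. Il13, named after its values were seen, was listed at 0 in all 6 libraries.

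Markers of the other cells in the tissue give the setting of these values. Their counts by sign stand beside the 58.4% of all genes tested with an estimate above 0. The 10 pan-epithelial genes summed to 4142 to 5209 FPKM in KO libraries and 4452 to 4800 FPKM in WT libraries, with 3 estimates above 0 and 7 below. Of 9 Paneth cell genes, alpha-defensins left out, all 9 estimates were below 0, with a median of -0.36. At an unadjusted limma p under 0.05, which 3.62% of all genes tested reached, there were 4 Paneth cell genes, lower in KO, 7 of the 8 B cell genes, higher in KO, 1 crypt stem cell gene, higher, and 1 large intestine gene, lower. The other cell type lists had none, and no gene of any list was called. Of 10 enterocyte genes 1 estimate was above 0 and 9 below, and of 6 crypt stem cell genes 5 were above and 1 below. The 8 enteroendocrine genes split 4 and 4, and of 7 tuft cell genes 5 were above 0. Of 7 smooth muscle genes 1 was above 0, and all 8 B cell genes were above 0 with a median of 1.61. Of 4 mast cell and type 2 lymphoid genes tested 3 were above 0. Of the 5 large intestine genes 3 were tested, with 1 above 0, and of 6 gastric genes none was tested, 4 being listed at 0 in all libraries. Whether the goblet genes differ from any of these lists was not tested.

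The differences were recomputed under 20 other settings of the scaling, filter, pseudocount, model and set of libraries. Estimates for Muc2, Fcgbp, Ern2 and Klk1 were above 0 in all 20, and none was called in any. The settings reuse the same libraries. The filters, the trend and robust options of limma and the replicate block left the estimates of these genes unchanged. A shared sign over the settings is therefore not repeated evidence, and the main intervals of these genes cross 0. Estimates for Tff3, Zg16, Spink4 and Agr2 took both signs. These data thus establish no direction for any of the genes tested.

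**Figure D5:**
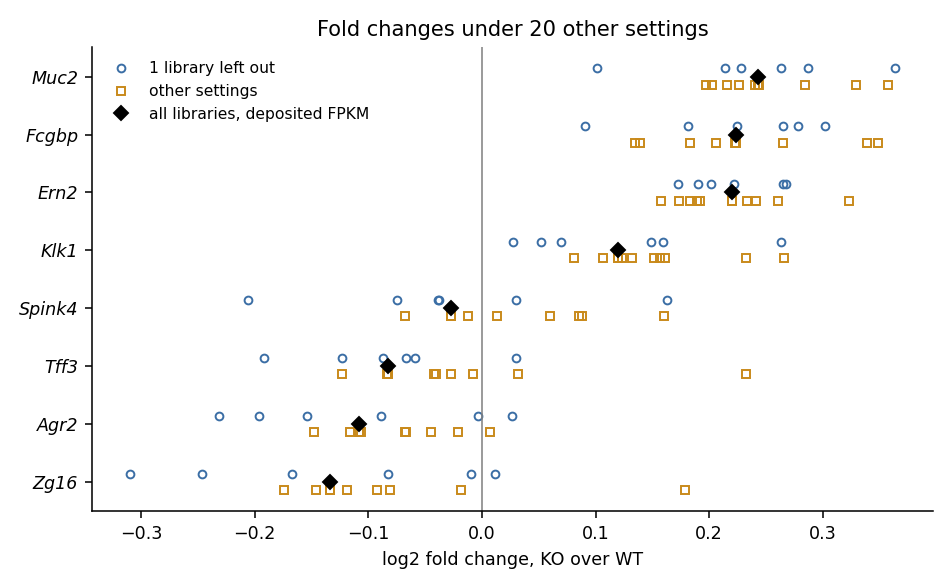
Log2 fold change, KO over WT, of the 8 tested goblet mucus genes under each of 20 alternative settings (points) and as reported (marked). Muc2, Fcgbp, Klk1 and Ern2 stay above 0 under all 20 settings, between 0.0277 and 0.3633, while Tff3, Agr2, Zg16 and Spink4 lie on both sides of 0.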

How the data were processed

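The data are RNA-seq libraries of whole terminal ileum, each from a single mouse, 3 KO and 3 WT. Per the labels' protocols, RNA was isolated with TRIZOL and libraries were made with a directional NEBNext Ultra II kit. The authors deposited 1 table of FPKM values for 23402 genes, and the submitters' processing notes name STAR, Cufflinks and Cuffnorm, beside FastQC, Trimmomatic, SAMtools and bedtools, and build GRCm38 (mm10). Not given in the sources used here: versions, scaling, strand setting and the treatment of multi-mapping fragments. Columns were matched to samples by group and number, with 0 columns unmatched.

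FPKM values are not counts, so the main test was limma 3.58.1 (R 4.3.3) with trend on log2(FPKM + 1), KO against WT, over genes averaging at least 1 FPKM, with Benjamini-Hochberg adjustment over all 12695 genes tested and a threshold of 0.05. Fold changes on this scale understate the change of low genes. Single genes were compared by exact two-sided permutation tests. The limma fit was also run on simulated data with independent noise for each gene. That simulation held no shift shared by a whole library, so it does not vouch for the fit where such shifts occur. Depth was estimated from low values: between 86.64% and 91.27% of their ratios between libraries were ratios of whole numbers up to 6 (tolerance 0.02 on the log2 scale), against 5.239% to 9.657% at shifted scales. Counting errors cover counting only.

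Coordinates are those of GENCODE M21 on GRCm38. No member's transcript held a stretch of at least 50 bases at 95% identity to another gene (blastn 2.17.0), and no exon overlapped another gene. The members, although picked by name and by no measured value, and the 19 gene lists were chosen with earlier results of these data known. Named genes are the 9 members, Il17ra, from each goblet list the 3 tested genes with the smallest unadjusted p, from each cell type or paralogue list the 2 smallest, paralogues above 0.1 FPKM on average, and the 3 other genes nearest Muc2 in profile; not all are described. Alternatives were other pseudocounts, filters, scalings and limma options, a replicate block, a sex term, leaving out each library and, added after seeing the data, a transcript length correction.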

Additional observations from a re-analysis of the deposited data

How the results depend on the processing

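None of the goblet mucus genes was called under any of the 20 alternatives. Muc2 (log2 difference 0.10 to 0.36), Fcgbp (0.09 to 0.35), Klk1 (0.03 to 0.27) and Ern2 (0.16 to 0.32) stayed above 0 in all of them, with lowest adjusted p in limma of 0.224, 0.503, 0.168 and 0.202. The other 4 changed sign. Tff3 was at 0.0322 with equal summed FPKM, 0.23 with quantile normalization and -0.1918 to 0.0296 with 1 library left out. Agr2 was at 0.0073 with equal summed FPKM and at -0.2309 to 0.0265 with 1 library left out. Zg16 was at 0.18 with quantile normalization and -0.3095 to 0.0118 with 1 library left out. Spink4 was at 0.0878 with equal summed FPKM, 0.16 with quantile normalization, 0.0137 centred on epithelial genes, 0.0855 with a sex term, 0.0599 with the length correction and -0.21 to 0.16 with 1 library left out. Equal summed FPKM moved the median of all genes to 0.131. The causes were not tested.

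The count of genes called, 0 as reported, was 2 with a pseudocount of 0.1, 2 with a pseudocount of 5, 2 with equal summed FPKM, 3 centred on epithelial genes, 24 with array weights and 0 to 41 with 1 library left out (41 without KO 3). Genes at an unadjusted p under 0.05 in limma, 323 higher and 136 lower as reported, numbered 538 and 232 with no filter, 288 and 207 with median-of-ratios scaling, 1119 and 54 with equal summed FPKM, 269 and 219 with quantile normalization and 1741 and 976 with array weights. The higher ones numbered 160 with a filter of 5 FPKM, the lower ones 69 centred on epithelial genes. With 1 library left out they numbered 109 to 456 higher and 79 to 372 lower. Goblet mucus genes at that level, 0 as reported, were 1 with equal summed FPKM, 3 with array weights and 0 to 1 with 1 library left out. Of 48 other named genes, Xbp1 was at 0.0036 with equal summed FPKM, Retnlg at -0.0055 with median-of-ratios scaling, -0.0401 with quantile normalization and -0.0937 to 0.2261 with 1 library left out, and Alox5ap at 0.0107 and Mptx1 at 0.0256 with array weights.

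With a replicate block 1 gene was called. Same-numbered libraries did not deviate together (correlations across genes of -0.13, 0.034 and -0.113), and not every library deviated most like its own number. No pairing of the mice by number was seen, but 3 libraries per group cannot settle whether there was one. No goblet mucus gene was called with the block. Depth limits Retnlb, at 1 to 3 fragments, and a design of 3 against 3 libraries limits all exact tests to a p of at least 0.1.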
